A study of Cicer arietinum with 18 samples.

Results

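The comparison described here is that of salicylic acid (SA) with aminocyclopropane carboxylic acid (ACC) 27 h after treatment in chickpea (Cicer arietinum) shoots. It comprised 6 of the 18 samples of the series: SA at 27 h and ACC at 27 h, each in the genotypes FLIP94-508C, ICC3996 and Lasseter, chosen by their titles and paired by genotype. Each sample set RNA from stem and leaf of 14-day-old treated seedlings against RNA of control seedlings of the same genotype, and the design text calls the control untreated. The other 12 samples were the 3 h harvests of SA and ACC and both harvests of methyl jasmonate (MeJA); they entered the model for their spread and are given beside the 27 h values where they bear on a feature. Every value is a log2 ratio that the authors averaged over 3 biological replications with dye swaps, so a sample carries no error of its own and the 3 genotypes served as the replicates. The ratio was read as treated over control, since the labels put the control in channel 1; this direction is likely, but no source states it. Were it control over treated, higher and lower, rose and fell, and every sign below would exchange, while sizes and p-values would stay. The sources used here do not say whether SA and ACC were set against the same control plants. If they were, the control cancels in the difference between the compounds.

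SA is a defence hormone that accumulates after infection and, in Arabidopsis, acts through the receptor and coactivator NPR1 on genes for pathogenesis-related proteins. ACC is the immediate precursor of ethylene; plants convert it with ACC oxidase, and ethylene signals through EIN2 and EIN3 to ERF transcription factors. The pathways are known to act together on some defence genes and against each other on others, and SA is best known for defence against biotrophic pathogens, ethylene for that against necrotrophs. The study concerned ascochyta blight, a necrotrophic fungal disease of chickpea. Of the genotypes, ICC3996 is known as resistant and Lasseter as susceptible to it.

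The array features carry identifiers made of CA, LS or U and a number. The files do not pair these with genes, and 0 of the 715 matched the RefSeq gene table of assembly Cicar.CDCFrontier_v2.0, so features are given by identifier, with no gene name, role or sequence. The sources used here do not say what the prefixes stand for. Of the 715 features, 532 had a value in all 6 samples. Tests were run on the 523 that missed no more than 1 of the 3 genotypes in any of the 6 compound-by-time groups. Of these 523, 14 lacked a value in 1 or more of the 6 samples, and 23 features with all 6 values were not tested. The 6 samples had 580 to 620 measured features each, sample medians of -0.30 to -0.08 (log2) and an SD over features of 0.94 to 1.07, so the spread of the 2 treatments was alike.

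The number of features at least 2-fold from control at 27 h did not differ between SA and ACC beyond the spread between genotypes, and the genotypes ranked differently under each compound. In FLIP94-508C, SA left 175 features at least 2-fold from control, 30 higher and 145 lower, and ACC left 138, 20 higher and 118 lower. In ICC3996, SA left 101, 26 higher and 75 lower, and ACC left 202, 75 higher and 127 lower. In Lasseter, SA left 147, 32 higher and 115 lower, and ACC left 145, 21 higher and 124 lower. ICC3996 thus had the lowest count under SA and the highest under ACC, and its 75 higher features under ACC stood apart from 20 to 32 in the other 5 samples. The group means were 141 ± 37.4 for SA and 162 ± 35.1 for ACC (SD, n = 3). Exchanging the compounds within the 3 pairs gave an exact two-sided permutation p of 1, where 3 pairs cannot give a p below 0.25. The mean difference, SA minus ACC, was -20.7 features with all 3 pairs and 19.5 without ICC3996. At a 1.5-fold threshold it was -64.7 (233 under SA, 297 under ACC, exact permutation p = 0.5), with SA higher in 1 of 3 pairs, against 2 of 3 at 2-fold.

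**Figure D1:**
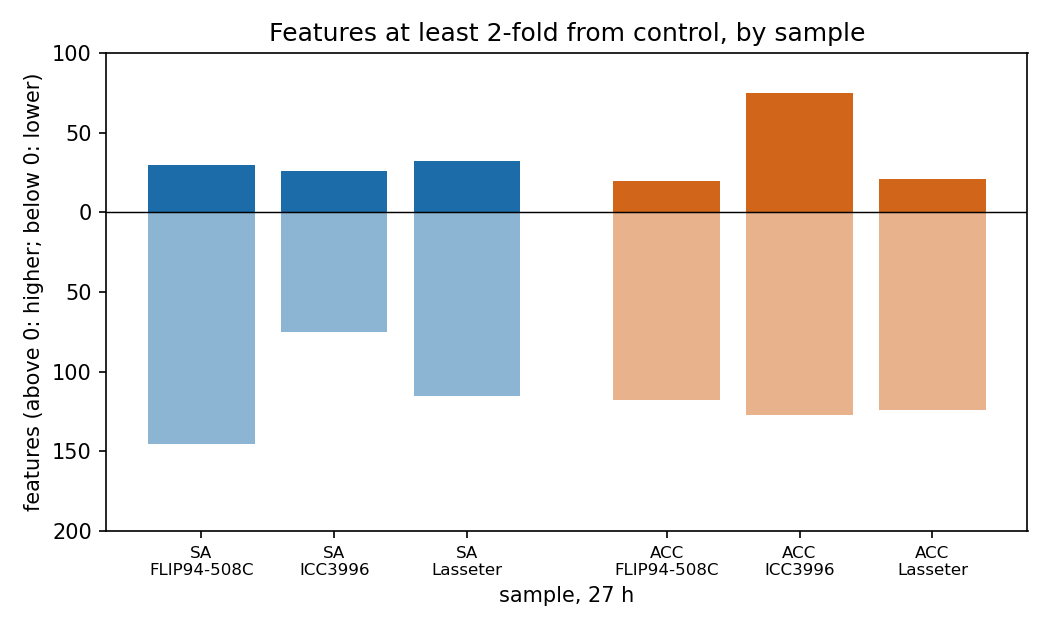
Features at least 2-fold higher (above the line) or lower (below it, paler) than control in each of the 6 samples at 27 h, for SA (blue) and ACC (orange). The ICC3996 sample under ACC had 75 higher features, against 20 to 32 in the other 5 samples.

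SA and ACC differed for 7 features at 27 h, 4 higher and 3 lower under SA. The values of the 3 SA samples did not overlap those of the 3 ACC samples for any of the 7. Over the 532 features with all 6 values this held for 111 (20.9%). The 7 were called on these same values, so the lack of overlap adds no support. The test was the difference of the compound means at 27 h in a limma model of all 18 samples with a genotype term, two-sided, with Benjamini-Hochberg adjustment over 523 features and a threshold of 0.05. The 7 calls were 1.34% of the features tested, 0.765% higher and 0.574% lower, and 94 features (18%) had an unadjusted p under 0.05. All 7 differed by at least 2-fold. They are grouped by the test against control in the same model: 2 passed under SA alone (CA1198 and U262), 3 under ACC alone (LS0342, U241 and U096) and 2 under both (U152 and U470). Over all features, 14.5% passed under SA (4.78% higher, 9.75% lower) and 18.9% under ACC (6.5% higher, 12.4% lower).

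CA1198 and U262 passed against control under SA alone. In FLIP94-508C, ICC3996 and Lasseter, the log2 ratios of CA1198 were 2.52, 2.13 and 3.01 under SA and 0.45, 0.44 and -1.01 under ACC. Every SA sample lay at least 1.68 above its ACC partner, and the ACC samples of FLIP94-508C and ICC3996 were slightly above control while that of Lasseter was below it. The difference was 2.59 (SE 0.46, 6.03-fold, adjusted p = 0.0161 in limma). Under SA the mean passed the test against control (2.55 ± 0.44, SD, n = 3, adjusted p = 0.00186), and under ACC it did not (-0.04 ± 0.84, adjusted p = 0.926). U262 was at -1.04, -0.46 and -0.25 under SA and at 0.46, 0.48 and 0.56 under ACC, a difference of -1.08 (SE 0.24, 2.12-fold lower under SA, adjusted p = 0.0421). U262 fell under SA (adjusted p = 0.0321), and its ACC mean of 0.50 ± 0.05 (SD, n = 3) had an adjusted p of 0.0512. All SA samples of U262 were below control and all ACC samples above it.

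LS0342, U241 and U096 passed against control under ACC alone. LS0342 stood at -1.45, -2.45 and -2.07 under ACC (FLIP94-508C, ICC3996, Lasseter) and at 0.39, 0.39 and 0.58 under SA. The ACC samples of LS0342 were all below control and its SA samples all above it, a difference of 2.44 (SE 0.37, 5.45-fold, adjusted p = 0.0145). Its ACC mean of -1.99 ± 0.50 (SD, n = 3) passed against control (adjusted p = 0.00107), and its SA mean of 0.45 ± 0.11 did not (adjusted p = 0.293). U241 was also lower under ACC, at -0.92, -1.54 and -1.64, against -0.41, -0.06 and -0.29 under SA. Both compounds left U241 below control in all 3 genotypes, and the difference of 1.11 (SE 0.25, 2.16-fold, adjusted p = 0.0484) was narrowest in FLIP94-508C, at 0.51. U096 was higher under ACC, at 1.53, 2.47 and 2.12, while under SA it was above control in FLIP94-508C (0.86), at control in ICC3996 (-0.03) and below it in Lasseter (-1.04). The ACC samples of U096 thus share a sign and the SA samples do not, and the difference of -2.11 (SE 0.43, 4.32-fold lower under SA, adjusted p = 0.0279) widened from -0.67 in FLIP94-508C to -3.16 in Lasseter.

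U152 and U470 passed against control under both compounds, in opposite directions. U152 was at -0.94, -0.94 and -1.15 under SA (FLIP94-508C, ICC3996, Lasseter), and under ACC at 1.57 in FLIP94-508C, 0.94 in Lasseter and between these in ICC3996. Its 3 pairs differed by -2.51, -2.44 and -2.10, with a fitted difference of -2.35 (SE 0.33, 5.09-fold lower under SA, adjusted p = 0.00644). U470 went the other way, at 0.65, 0.26 and 1.80 under SA and at -0.54, -0.97 and -0.56 under ACC. The Lasseter pair was the widest, at 2.35, and the difference was 1.59 (SE 0.31, 3.01-fold, adjusted p = 0.0219). U152 fell under SA (adjusted p = 0.0155) and rose under ACC (adjusted p = 0.00361), and U470 rose under SA (adjusted p = 0.0156) and fell under ACC (adjusted p = 0.0409).

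**Figure D2:**
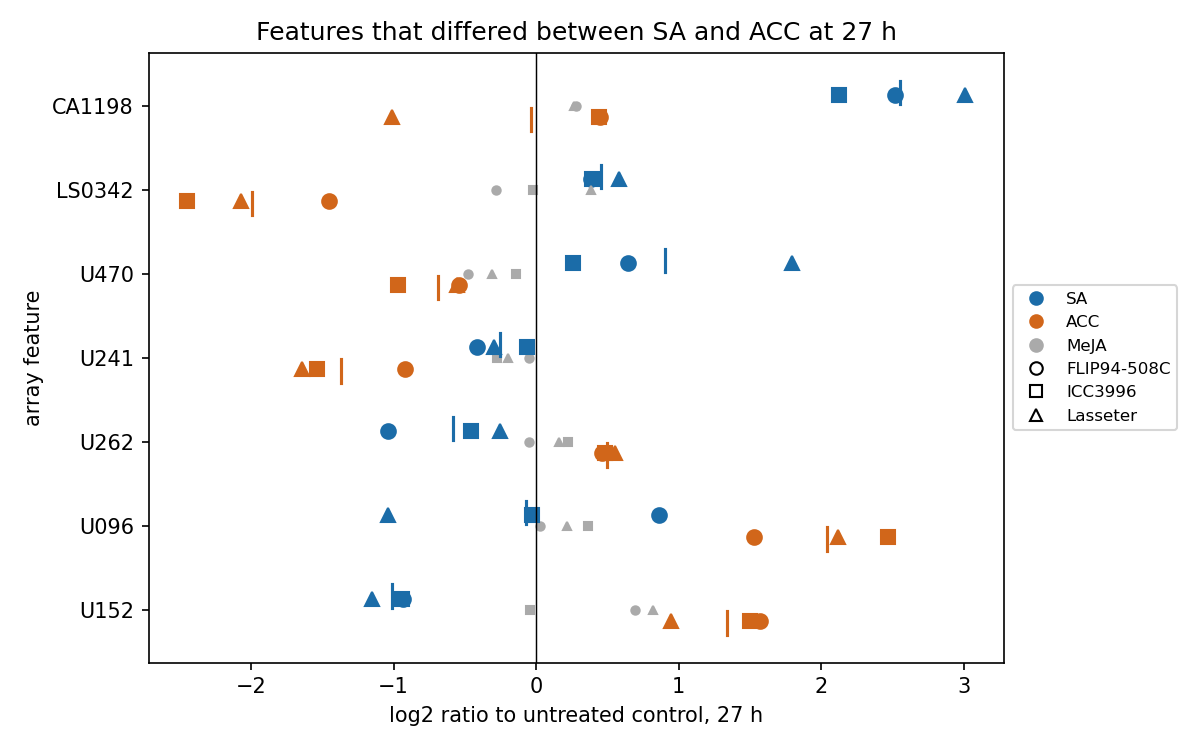
Log2 ratio to control at 27 h of the 7 features that differed between SA (blue) and ACC (orange), 1 point per genotype and a short line at the group mean, with the MeJA samples in grey. The SA and ACC points of a feature do not overlap, and U152, U470, U262 and LS0342 have all SA points on one side of 0 and all ACC points on the other.

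The MeJA samples of the same time lay nearer to control, on average, than those of the compounds under which each feature passed. Their means ranged from -0.31 ± 0.17 for U470 to 0.49 ± 0.47 for U152 (SD, n = 3), and CA1198, measured under MeJA in 2 genotypes, was at 0.28 and 0.26. None of the 7 passed the test against control under MeJA, where 0% of the 523 features did and 27 (5.16%) had an unadjusted p under 0.05 in limma. The spread in this test was pooled over all groups. Over features, the MeJA samples of FLIP94-508C and Lasseter had an SD of 0.31 and 0.28, against 0.94 to 1.07 under SA and ACC. The test may therefore miss small responses to MeJA.

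The number of calls depended on which samples were in the fit and on their scaling. Leaving out a sample or genotype at 27 h changes the estimates and the residual degrees of freedom as well as the spread, and these were not told apart. The limma fit made 0 calls without any 1 genotype, without the ICC3996 sample under ACC and without the Lasseter sample under SA, with 59 to 79 features at an unadjusted p under 0.05. It made 2 calls without the Lasseter sample under ACC and 4 without the ICC3996 sample under SA. It also made 0 calls without all MeJA samples (60 features unadjusted; adjusted p of 0.0549 for U152 and CA1198 and 0.0586 for LS0342) and with all samples scaled to equal spread (48 unadjusted). The 6 samples at 27 h alone gave 23 calls, 5 of them among the 7, and no alternative tried turned the sign of any of the 7.

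Just outside the threshold, 10 features shared an adjusted p of 0.0649, 3 higher and 7 lower under SA, and 29 (5.54%) had an adjusted p under 0.1. The widest difference of all tested features was among them and was picked out after its values were seen. U212 was at 3.31, 2.09 and 3.98 under SA and at 0.04, -0.59 and 0.80 under ACC (FLIP94-508C, ICC3996, Lasseter). Its pairs differed by 3.27, 2.68 and 3.18, and the fitted difference was 3.04 with an SE of 0.73. The model takes its spread from all groups, and U212 was at -3.46 in FLIP94-508C 3 h after ACC, against 0.12 and -0.28 in the other genotypes. The part of that value in the SE of U212 was not tested. Among tested features lower under SA in all 3 genotypes, the largest differences with a CA and with an LS prefix were also at 0.0649. CA0615 was at -1.93, -0.92 and -1.82 under SA and at 0.80, -0.14 and -0.43 under ACC, and LS0818 at -2.23, -1.32 and -0.66 under SA and -0.31, -0.41 and 0.80 under ACC.

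Counted without the model, looser criteria were met by many more features than were called. These counts had no test, and features unrelated to the compound can also meet such criteria. Of the 532 features with all 6 values, 111 (20.9%) had SA and ACC samples that did not overlap, 49 (9.21%) with SA above and 62 (11.7%) with SA below. At 3 h this held for 39 of 482 features (8.09%). The difference was in the same direction in all 3 pairs for 220 features (41.4%), 104 (19.5%) higher and 116 (21.8%) lower under SA. In 18 features SA and ACC were at least 2-fold apart in each of the 3 pairs, 11 with SA higher (2.07%) and 7 with SA lower (1.32%), and 17 of these were tested and 4 called. Of the 11 tested features with SA higher, 6 had passed against control under SA alone, 2 under ACC alone, 1 under both and 2 under neither. Of the 6 tested with SA lower, the counts were 2, 2, 1 and 1. Over all 523 tested features, 1.34% were called, 14.5% passed against control under SA and 18.9% under ACC. The shares of all features passing under 1 compound alone were not computed. The 2-fold features were chosen on the same 27 h values as these tests, so the calls and the split among them add no support. No feature was at least 2-fold apart in all 3 pairs at 3 h, where 482 features had 3 pairs. Taken singly, the ICC3996 pair reached 2-fold for only 46 of the 482 at 3 h, which caps that count. It had reached this for 177 of 532 at 27 h. The Lasseter and FLIP94-508C pairs went the other way, with 133 and 207 of 482 at 3 h against 90 and 136 of 532 at 27 h. The 0 therefore does not show that SA and ACC lay closer at 3 h in every genotype.

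The genotypes differed in how far apart the compounds lay. SA and ACC were at least 2-fold apart for 177 features (33.3%) in ICC3996, for 136 (25.6%) in FLIP94-508C and for 90 (16.9%) in Lasseter, of the same 532. In ICC3996 more of them were lower under SA (99, or 18.6%) than higher (78, or 14.7%). In FLIP94-508C 73 (13.7%) were higher and 63 (11.8%) lower, and in Lasseter 48 (9.02%) and 42 (7.89%). The SD of the difference over features was 1.06 in ICC3996, 0.92 in FLIP94-508C and 0.88 in Lasseter (log2). With 1 pair per genotype these differences had no test.

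Some features moved against the other genotypes in 1 pair. LS0263 was at -0.09 under ACC in ICC3996 and far lower under SA, a difference of -3.91, but at -1.46 and -3.63 in FLIP94-508C and at -0.93 and -2.47 in Lasseter, where SA was higher by 2.17 and 1.54. It fell under both compounds (adjusted p = 0.0239 for SA and 0.0234 for ACC in limma), with the lowest value in ICC3996 under SA and in FLIP94-508C under ACC, while the difference of the means was -0.07 (adjusted p = 0.975). CA0722, which was not tested, was higher under SA by 2.86 in Lasseter and lower in FLIP94-508C (-0.29) and ICC3996 (-1.79). U434, also not tested, was 3.55 higher under SA in ICC3996 and lower in FLIP94-508C (-4.81) and Lasseter (-2.18), and its SA samples ran from -5.47 to 2.08. LS0403, not tested either, was lower under SA in Lasseter (-2.64) and higher in FLIP94-508C (0.76) and ICC3996 (0.90).

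Opposite signs in every genotype were found for 22 features, 4.14% of the 532 with all 6 values, a count that had no test. In 11 (2.07%) all SA samples were above and all ACC samples below control, and in 11 (2.07%) the reverse. All 22 were tested, and 4 of them (LS0342, U470, U152 and U262) were among the 7 called, where 1.34% of all 523 tested features were called. The 22 were chosen on the same 27 h values as the calls, so this overlap adds no support. Passing against control under both compounds in opposite directions was rarer, with 2 of 523 features (0.382%), U470 and U152. Leaving out a sample at 27 h or a genotype left 0 to 2 of such features, with 0 without any 1 genotype, without either the FLIP94-508C or the Lasseter sample under SA and without the ICC3996 sample under ACC. U470 was not among such features with sample weights (3 features), in the 6 samples alone (2 features) or with each sample centred on its median (1 feature). It was also not among them without the FLIP94-508C or the Lasseter sample under ACC (1 feature each). In these fits all such features had SA lower. None of the 22 had all 6 samples at least 2-fold from control. The mean difference ran from 0.52 to 2.44 (LS0342) in the 11 higher under SA and from -0.22 to -2.35 (U152) in the 11 lower under SA.

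The widest opposite-sign differences not called were LS0997 and LS0341 with SA higher. LS0997 was at 0.29, 0.80 and 0.36 under SA and at -1.68, -1.24 and -1.95 under ACC (FLIP94-508C, ICC3996, Lasseter). The 3 pairs of LS0997 were alike, at 1.97, 2.04 and 2.31, while the SE from the model of all groups was 1.14, and the difference of 2.11 had an adjusted p of 0.359. That model includes the MeJA samples, and LS0997 was at -5.71 in FLIP94-508C 3 h after MeJA, against 0.43 in ICC3996 and 0.01 in Lasseter. In limma without the MeJA samples LS0997 had an adjusted p of 0.221, and in the 6 samples at 27 h alone of 0.00526. The part of that single value in the SE of LS0997 was not tested. LS0341 was at 0.96, 0.88 and 1.87 under SA and at -0.82, -0.80 and -0.34 under ACC, a difference of 1.89 (SE 0.61, adjusted p = 0.131). With SA lower, U492 was at -0.69, -0.88 and -1.28 under SA and at 1.01, 1.38 and 0.19 under ACC (difference -1.81, SE 0.46, adjusted p = 0.0649). U097 was at -1.58, -0.18 and -0.11 under SA and at 0.23, 1.40 and 0.78 under ACC (difference -1.43, SE 0.42, adjusted p = 0.0849). That the SA and ACC samples of these 4 features did not overlap follows from their opposite signs and is no further result.

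**Figure D3:**
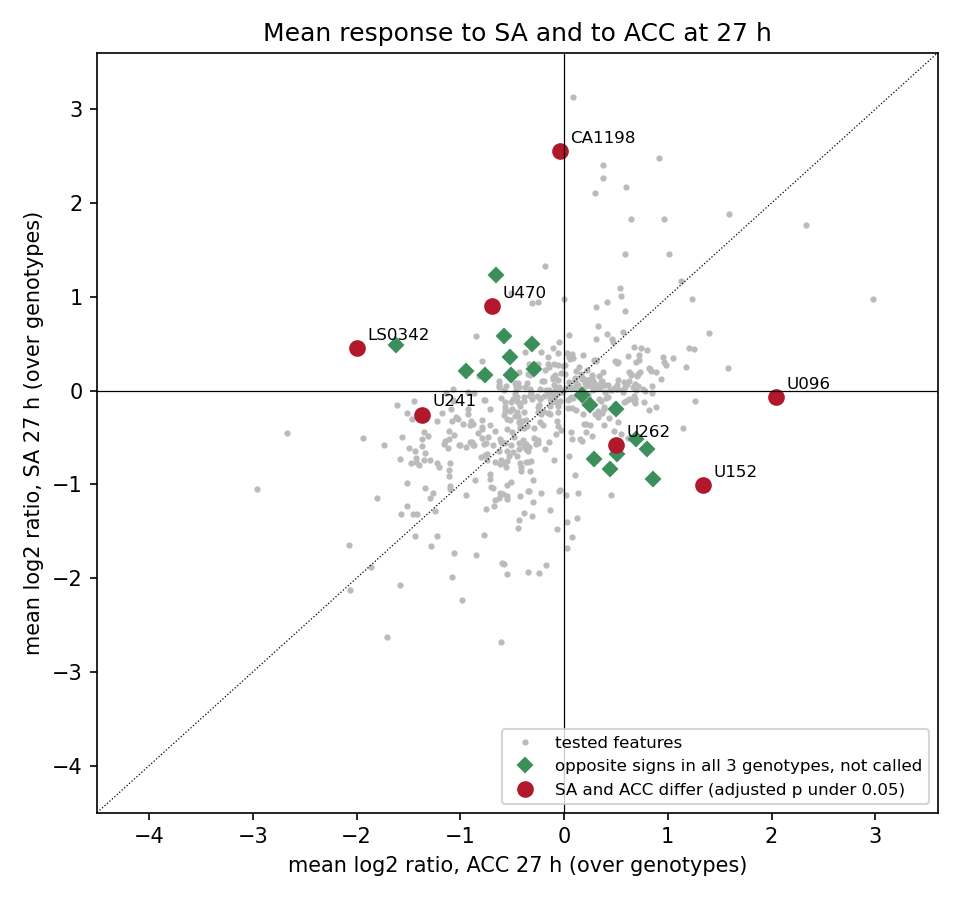
Mean log2 ratio over genotypes at 27 h under ACC (horizontal) and SA (vertical) for the 523 tested features in grey, with the 7 called features in red and the 18 further features of opposite sign in all genotypes as green diamonds. The dotted line marks equal means; U152 lies at 1.34 under ACC and -1.01 under SA, and LS0342 at -1.99 and 0.45.

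The LS features leaned towards SA among the features of opposite sign. Of the 11 above control under SA and below it under ACC, 7 were LS features and 4 U features, and of the 11 of the reverse kind 10 were U features, 1 was a CA feature and 0 were LS features. Of either kind there were 7.29% of the LS, 4.2% of the U and 0.971% of the CA features with all 6 values. Over the 96 LS features with all 6 values the median difference was 0.31 (log2), against -0.11 for 333 U features, -0.02 for 103 CA features and -0.01 for all 532. SA and ACC samples did not overlap for 17 LS features (17.7%), 14 with SA above, for 77 U features (23.1%), 27 with SA above, and for 17 CA features (16.5%), 8 with SA above. By genotype the LS median was highest in FLIP94-508C, at 0.73, followed by 0.26 in Lasseter and 0.13 in ICC3996, so it was above 0 in each. By prefix, 1 of 100 CA features (1%), 1 of 88 LS features (1.14%) and 5 of 335 U features (1.49%) were called. These counts by prefix are descriptions and were not tested.

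The early samples were then set beside the late ones, to see whether the separation at 27 h was already there at 3 h. At 3 h SA and ACC differed for 3 features (0.574% of 523), 1 (0.191%) higher and 2 (0.382%) lower under SA, and 62 (11.9%) had an unadjusted p under 0.05. This count ranged from 0, without Lasseter or either of its 3 h samples, over 25 without ICC3996, to 31 without the ICC3996 sample after ACC. None of the 7 late features was among them. Of the 7, only U096 had a 3 h difference with an unadjusted p under 0.05 (-0.97, SE 0.43, adjusted p = 0.395 in limma). U096 was at 1.03, 0.47 and 1.14 under ACC and at -0.44, -0.08 and 0.26 under SA at 3 h, so it was above control under ACC in all 3 genotypes at both times. For U470, U241 and CA1198 the 3 h differences were -0.05 (95% interval -0.71 to 0.61), -0.04 (-0.58 to 0.50) and 0.18 (-0.81 to 1.17). U262 had a 3 h difference of -0.33 (-0.84 to 0.18), with pairs at -0.73, 0.32 and -0.59. U152, without a FLIP94-508C value under SA, had -0.51 (-1.34 to 0.32), with both its pairs lower under SA, as at 27 h. LS0342 had 1 complete pair at 3 h, 1.24 under SA and -0.35 under ACC in Lasseter.

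The 3 features that differed at 3 h did not pass at 27 h; they are named because they are few, after their values were seen. U166 was at -3.20 in ICC3996 and -4.28 in Lasseter 3 h after SA, with no FLIP94-508C value, and at -1.40, -0.39 and 0.03 after ACC (difference -3.28, SE 0.54, adjusted p = 0.0120). At 27 h U166 was at 1.71, 1.28 and 0.29 under SA and at -0.40, 0.81 and 1.21 under ACC, which overlap (difference 0.55, adjusted p = 0.558). U160 was at -4.04 in ICC3996 and -3.37 in Lasseter 3 h after SA and at -1.31, 0.04 and -0.38 after ACC (difference -3.16, SE 0.49, adjusted p = 0.0120), and at 27 h the difference was -0.77 (95% interval -1.70 to 0.16). U386 was at 0.80, 0.53 and 1.35 under SA and -1.40, -0.09 and -0.92 under ACC at 3 h (difference 1.70, SE 0.33, adjusted p = 0.0308), and at 27 h the difference was 0.28 (95% interval -0.43 to 0.99).

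The change of the SA to ACC difference between the times was also tested itself, and no feature passed (0 of 523, 0%, in limma), with 38 features (7.27%) at an unadjusted p under 0.05. Leaving out the FLIP94-508C or the ICC3996 sample 3 h after ACC gave 9 and 6 calls, and limma's sample weights gave 4. The lowest adjusted p was 0.0794, for U166, with a change of 3.84 (SE 0.71) from 3 h to 27 h. Of the 7 late features, 6 had an unadjusted p under 0.05 for the change, all but U096, and their adjusted p ran from 0.229 to 0.648. The change contains the 27 h difference by which the 7 were called, so that choice favours low unadjusted p-values. A difference that passed at 27 h and not at 3 h was therefore not shown to have changed between the times. U470 had the change of 1.64 (SE 0.44), CA1198 of 2.41 (SE 0.64), U152 of -1.84 (SE 0.51) and U241 of 1.15 (SE 0.36).

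Among changes of one sign in every genotype, the largest are given although none passed. LS0159 had a change of 4.08 (SE 1.13, adjusted p = 0.229). It was at -1.48, -0.60 and -4.87 at 3 h and at 1.74, 2.77 and 1.83 at 27 h under SA, and at -1.34, 0.49 and 0.72 and then 0.35, -0.08 and 0.64 under ACC. At 27 h the LS0159 samples of the compounds did not overlap, with SA above by 1.19 to 2.85, and the difference of 1.81 had an adjusted p of 0.258. U033 had a change of 2.67 (SE 1.46, adjusted p = 0.771), which rested on its 3 h values under SA of -1.91, -1.19 and -5.41, and its 27 h samples overlapped. LS0185 changed by -2.50 (SE 0.85, adjusted p = 0.342), from 0.50, 0.63 and 0.52 under SA and -3.12, 0.39 and -1.43 under ACC at 3 h to 1.80, 0.93 and 2.57 under SA and 1.90, 2.70 and 2.41 under ACC at 27 h. Both compounds thus left LS0185 above control at 27 h in every genotype, and the fitted difference there was -0.57 (95% interval -1.86 to 0.73). U221 changed by -2.28 (SE 0.81, adjusted p = 0.433) and was at -0.27, -3.28 and -2.29 under SA and 0.60, -0.26 and -1.06 under ACC at 27 h.

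**Figure D4:**
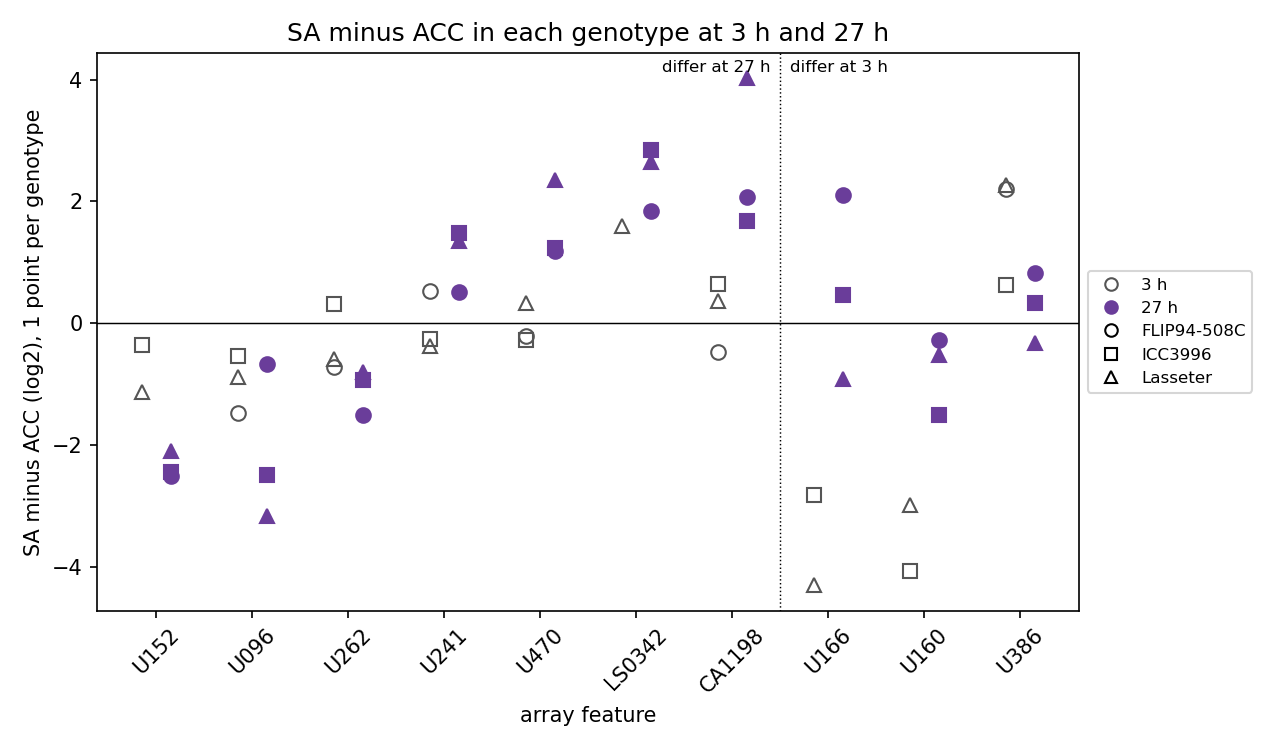
SA minus ACC (log2) in each genotype at 3 h (open symbols) and 27 h (filled) for the 7 features that differed at 27 h (left of the dotted line) and the 3 that differed at 3 h (right). The 27 h points of U152 lie between -2.51 and -2.10, and those of U166, which differed at 3 h, lie between -0.92 and 2.11.

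Of the 111 features whose SA and ACC samples did not overlap at 27 h, 98 had all 6 values at 3 h. At that time 10 of them were separated the same way and 1 the opposite way. Over all features, 39 of 482 (8.09%) were separated at 3 h in either direction. Among the 22 features of opposite sign, 4 had all 3 pairs differing in the same direction at 3 h. The share of all features with such pairs was not computed, so these 4 cannot be read as many or few. Of the 22, 0 had opposite signs in every genotype the same way at 3 h. At 3 h itself, 12 of 482 features had opposite signs in every genotype. LS0341 was 1 of the features with an early difference, at 2.18, 0.67 and 1.76 under SA and -1.24, 0.50 and -0.91 under ACC at 3 h, and the change between the times was -0.19 (95% interval -2.05 to 1.67).

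Among the 23 features with all 6 values that were not tested for want of values in other groups, the widest mean differences are given as values. U468 was at 0.17, 0.62 and 0.25 under SA and at -2.25, -3.07 and 0.22 under ACC, so that the Lasseter pair did not differ. LS0388 was at -0.81, 0.17 and -0.27 under SA and at -2.86, -0.69 and -2.98 under ACC, with SA higher by 0.86 to 2.71. CA0709 was at 0.88, -0.30 and 0.17 under SA and at 2.45, 1.45 and 1.98 under ACC. Its 3 pairs were even, at -1.57, -1.75 and -1.81, and at 3 h it was also above control under ACC, at 1.38, 1.14 and 2.23. LS0698 was at -2.58, -3.15 and -0.64 under SA and at -0.52, -0.52 and -1.24 under ACC, with the Lasseter pair turned the other way.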

How the data were processed

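RNA was measured on a spotted 2-colour array in 18 samples. The deposited values are log2 ratios. Per the design text, the authors scanned with Jaguar 2, quantified with ImaGene 5.5 (the version in the readme) and used GeneSight 3 to subtract local background, omit flagged spots, apply Lowess and take a shifted log2 of the Cy5/Cy3 ratio. The shift, not given in the sources used here, pulls ratios of dim spots towards 0. Scanner files were not used here.

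Values were taken as deposited. limma 3.58.1 (R 4.3.3) fitted 6 compound-by-time means plus genotype, with 10 residual degrees of freedom for complete features and standard eBayes, and each contrast was a coefficient of the design, so missing values enter its SE exactly. Genotypes are the replicates and pair the samples because the same lines occur in every group; deviations from the group means correlated between the SA and ACC samples of a genotype at 0.21, -0.22 and 0.29 across 444 features (FLIP94-508C, ICC3996, Lasseter). The p-values measure how genotypes vary around the group means once their average offset is removed, together with measurement error. This spread is pooled over all 6 groups and is not that of the SA and ACC samples alone. MeJA samples had an SD over features of 0.28 to 0.37, except ICC3996 at 27 h (1.04). The SA and ACC samples at 27 h had 0.94 to 1.07, and those at 3 h ranged from 0.51 (ICC3996 under ACC) to 1.22 (Lasseter under SA). The scripts were tested on simulated data in which a feature had the same SD in every sample, so that test does not cover a spread that differs between compounds. Features and lists were chosen with earlier results of these data known. Named were at most 2 features in each direction by size for each comparison (27 h difference, opposite signs, change, smallest 3 h difference among late calls, prefix, uneven pairs, untested), plus those said in the text to be picked after seeing values. Precision is limited by the number of arrays and by omitted spots (13.3% to 18.9% at 27 h). No batch is named in the labels.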

Additional observations from a re-analysis of the deposited data

How the results depend on the processing

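The count of 7 features at 27 h became 13 with no feature filter (8 higher, 5 lower, all 7 included), 2 over features measured in all 18 samples, 14 with no replicate block (the genotype term left out; 7 higher and 7 lower), 42 with sample weights (19 higher, 23 lower, all 7 included), 23 in the 6 samples alone with the genotype as replicate block (12 higher, 11 lower), and 0 with equal spread or in the 12 SA and ACC samples. The methods' t-test, paired over genotypes, gave 48 before adjustment, 24 of these at least 2-fold, and 0 after it. Leaving out a sample or genotype gave 0 to 7. The count of 3 at 3 h became 6 with no filter, 0 over complete features, 6 with centred samples, 0 with equal spread, 30 with sample weights, 5 with no replicate block, 0 in the 12 samples, 10 and 0 by the methods' t-test before and after adjustment, and 0 to 31 with a sample or genotype left out, with the lowest counts without Lasseter samples; it was 10 without the FLIP94-508C sample after SA, and 5 without FLIP94-508C or the ICC3996 sample after SA. The change had 4 calls with sample weights and 0 to 9 with a sample or genotype left out, being 3 without the FLIP94-508C sample 3 h after SA and 1 without FLIP94-508C, ICC3996 or a Lasseter sample at 27 h. The 2 features called in opposite directions became 3 with no filter (2 with SA higher). They became 3 with sample weights, 2 in the 6 samples alone and 1 with centred samples, all with SA lower and so without U470. There were 0 such features with equal spread or in the 12 samples and 0 to 2 in the leave-out fits. The causes were not tested.

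Across the 9 leave-out fits at 27 h, U152 passed in 4, CA1198, LS0342 and U470 in 3 each, U096 in 2, U241 in 1 and U262 in 0. U241 did not pass with a robust variance prior (adjusted p = 0.0550). The SA minus ACC count of 2-fold features turned from -20.7 to 2.33 at 3-fold and to 19.5 without ICC3996; it was -64.7 at 1.5-fold, -34.3 over features with all 6 values, -27 with centred samples and down to -49.5 without another genotype. In the 1.5-fold, all-value and centred counts SA was higher in 1 of 3 pairs. The 27 h difference changed sign for LS0185 with equal spread (0.091) and without the ICC3996 sample under SA (0.11), for LS0263 with sample weights (0.55) and without the ICC3996 sample under ACC (1.05) or SA (1.12), and, on leaving out genotypes, for LS0185 (-0.93 to 0.034), LS0263 (-1.18 to 1.85), U033 (-0.080 to 0.83) and U166 (-0.23 to 1.29). None of these 27 h differences had passed.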

Other observations

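The array holds 3 features named as normalisation controls. Of these, CA0011 NORMCON2 lay between 0.02 and 0.22 and CA0020 NORMCON4 between -0.06 and 0.20 in the 6 SA and ACC samples at 27 h, while CA0018 NORMCON3 lay between -2.83 and -0.89 in the 5 of them that had a value.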
